A study of Mus musculus with 2 samples.

Results

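The gene for p53, Trp53, and 9 of its well-known target genes, Mdm2, Cdkn1a, Ccng1, Bax, Bbc3, Aen, Trp53inp1, Zmat3 and Phlda3, were examined by RNA-seq in mouse embryonic stem cells (ESCs). The 10 genes were taken by symbol from a deposited table of 24532 genes on the mm10 build, and all 10 were found. The series compared parental E14 cells, an established mouse ESC line labelled as wild type, with E14-Sox2 TA/WT cells, in which threonine 258 of 1 Sox2 allele was changed to alanine (T258A) by CRISPR/Cas9 so that this residue can no longer carry the sugar O-GlcNAc. Mutant clones grew from single sorted cells, still carry a wild-type Sox2 allele, and were selected and usually kept in serum with LIF and the inhibitors PD0325901 and CHIR99021 (2i), which were withdrawn before the experiments, whereas E14 cells were grown in serum with LIF. Genotype, clone and culture history cannot be told apart here. With 1 library per genotype, differences could not be set against a spread between replicates, and p-values are not given.

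p53 is a transcription factor that is held at a low level by Mdm2, a ubiquitin ligase whose gene p53 itself activates. DNA damage and other stresses stabilize the p53 protein, and it then switches on genes for cell-cycle arrest, DNA repair and cell death. Mouse ESCs are known for abundant p53, and p53 can promote their differentiation. The protein is controlled largely after translation, and RNA-seq measures neither its amount nor its activity.

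p53 binds DNA at pairs of half-sites of 10 bases. RefSeq promoter windows (GRCm38.p6, 250 bases before to 50 after an annotated transcript start) were searched for the p53 consensus half-site, which is its own reverse complement, so that 1 search covers both strands. Windows were at hand for 8 of the 10 genes, and 6 of them held an exact half-site, against 9.55% of all 27025 genes with a window. In 2 of the 8, Cdkn1a and Ccng1, a pair of adjacent half-sites matched with 1 mismatch, and 0.0814% of all genes had such a pair with at most 1 mismatch. The matches are shown with their flanks because they are a feature of the members that expression did not choose. The members were taken as p53 and its well-known targets, however, so their share of matches is not independent of that choice. Capitals mark the matched bases, and the sequences run in the direction of the gene. Distances count from the first matched base to the transcript start on which the window was built. For Trp53, Ccng1, Bax and the later start of Aen, that position lies inside the span of the whole gene.

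Cdkn1a, chr17:29090918-29090957, plus strand, match starting 51 bases before the transcript start at 29090979: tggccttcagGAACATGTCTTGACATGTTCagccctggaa

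Ccng1, chr11:40755452-40755491, minus strand, match starting 195 bases before the transcript start at 40755286: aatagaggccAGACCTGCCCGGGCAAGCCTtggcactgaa

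Bax, chr7:45467080-45467109, minus strand, half-site 201 bases before the transcript start at 45466898: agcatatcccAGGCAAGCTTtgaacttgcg

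Mdm2, chr10:117710925-117710954, minus strand, half-site 186 bases before the transcript start at 117710758: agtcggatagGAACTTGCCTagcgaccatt

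Trp53, chr11:69580274-69580303, plus strand, half-site 75 bases before the transcript start at 69580359: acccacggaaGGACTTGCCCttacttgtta

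Aen, chr7:78895927-78895956, plus strand, half-site 10 bases after the transcript start at 78895927 and 121 before the one at 78896058: agccgaagccGGGCTTGTCCgggcaaggag

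The Cdkn1a window held a further exact half-site, 73 bases before the same transcript start.

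Cdkn1a, chr17:29090896-29090925, plus strand, further half-site: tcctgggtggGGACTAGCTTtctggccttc

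No exact half-site was found in the windows of Bbc3 and Phlda3. A match is a description of letters, and binding of p53 was not measured in this series.

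The E14 library held 60263536 reads and the mutant library 44609228. TPM, a level scaled for transcript length and for the library, was at least 10 in at least 1 library for 9094 genes. Sox2, the edited gene, had 373 TPM in E14 and 274 TPM in E14-Sox2 TA/WT cells, which does not report on the amino acid change. All 7 ESC markers examined were past 10 TPM, with 4 higher and 3 lower in the mutant and a median log2 ratio of 0.03. They ran from Nanog to Dppa4 (147 and 193 TPM, 0.40), and Pou5f1 was level at 1725 and 1759 TPM. Only Nanog passed 2-fold, with a fall from 527 to 251 TPM (36683 and 11728 reads, log2 ratio -1.07). Of 8 fibroblast markers, Lum, Dcn and Postn had 0 reads in both libraries, and the summed level of the list was 49.8 TPM in E14 and 19.5 TPM in E14-Sox2 TA/WT cells, most of it from Thy1, which fell from 40.1 to 11.4 TPM (2189 and 419 reads, log2 ratio -1.81). Pdgfrb was lower too, with 1151 reads in E14 and 327 in the mutant. Collagen genes were low in both libraries and did not follow Thy1. Col3a1 rose from 0.0799 to 1.28 TPM (15 and 151 reads) and Col1a2 from 0.259 to 0.985 TPM (43 and 109 reads, log2 ratio 1.93), while Col1a1 had 2.66 and 2.95 TPM (497 and 370 reads, 0.15, -0.05 to 0.35). The part of these markers in the results below was not tested. In bulk RNA, fewer cells that express a gene and less RNA per cell cannot be told apart.

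All 10 genes were well expressed. Their reads ran from 1775 to 26389 per library, and their levels spanned 51.5 to 395 TPM in E14 and 48.7 to 474 TPM in the mutant. Bax had the highest level of the 10 in E14 and Trp53 in E14-Sox2 TA/WT cells. The lowest was Zmat3 in E14 and Bbc3 in the mutant. Ccng1, Mdm2 and Trp53inp1 held ranks 3, 4 and 5 by TPM in both libraries.

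**Figure D1:**
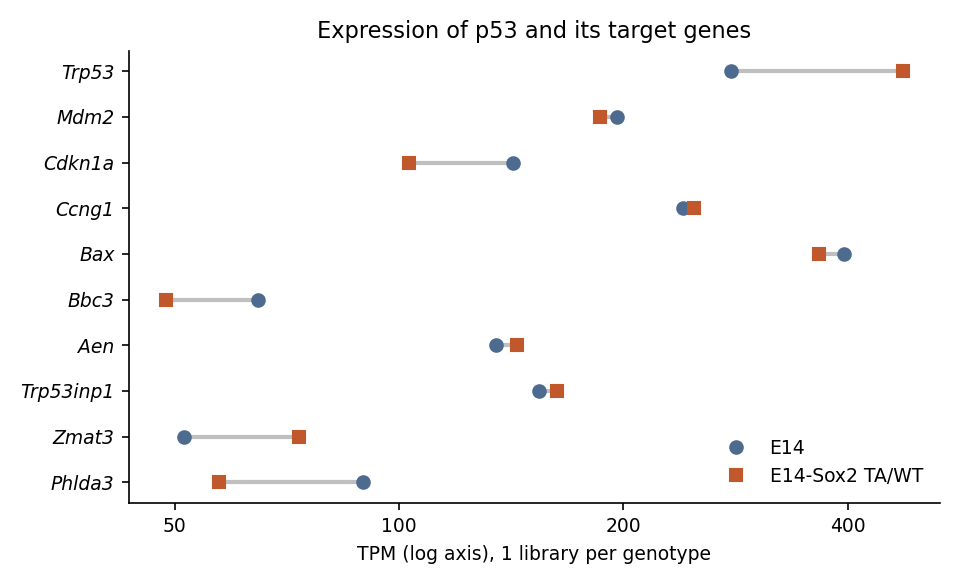
TPM (log axis) of p53 and its 9 targets in the E14 library (circles) and the E14-Sox2 TA/WT library (squares), 1 library each, without error bars. Trp53 lies farthest to the right in the mutant at 474 TPM, and Cdkn1a, Bbc3 and Phlda3 lie lower in the mutant than in E14.

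Trp53 (Entrez gene 22059, chr11:69580348-69591873) stood out from its targets. Its level was 279 TPM in E14 (15820 reads) and 474 TPM in the mutant (17910 reads), and the read count was higher in the mutant although that library was the shallower of the pair. The log2 ratio of TPM was 0.77 (95% interval 0.74 to 0.80), or 1.70-fold. The interval comes from the read counts and covers counting error only, not variation between cultures, and reads made by PCR are not independent molecules. Of the 9094 genes, 8.14% had a higher ratio. By TPM, Trp53 already exceeded 94.3% of these genes in E14. A Trp53 pseudogene is annotated on chromosome 17, and reads that it could share with Trp53 are uncertain.

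No member passed the 2-fold threshold of the study. Among all 9094 genes, 4.17% were more than 2-fold higher and 4.07% more than 2-fold lower in the mutant (3.08% and 5.45% with counts scaled to the library total). At 1.5-fold, 1 member was higher (Trp53) and 1 was lower (Phlda3), against 14.2% and 10.5% of all genes. The interval excluded no change for all 10 members, but it did so for 85.4% of all genes as well, so at this depth it separates the members little from the rest.

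Mdm2, the inhibitor and target of p53, had 196 TPM in E14 (19114 reads) and 186 TPM in the mutant (12144 reads), for a log2 ratio of -0.08 (-0.11 to -0.04), below the median of 0.08 over all genes. Mdm2 did not share the higher level of Trp53. Its TPM was 0.70 times that of Trp53 in E14 and 0.39 times in the mutant.

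The cell-cycle targets differed from each other. Cdkn1a encodes p21, the inhibitor of cyclin-dependent kinases through which p53 arrests the cell cycle, and had 142 TPM in E14 (8564 reads) and 103 TPM in the mutant (4160 reads). Its log2 ratio was -0.46 (-0.52 to -0.41), with 13.9% of all genes lower. Ccng1 encodes cyclin G1, a feedback regulator in the p53 and Mdm2 circuit, and was nearly level at 240 TPM (26389 reads) and 249 TPM (18303 reads). Its log2 ratio of 0.05 (0.02 to 0.08) changed sign with the scaling of the libraries. So the genes with a paired p53 element in their window, shown above, had unlike ratios.

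Among targets that act in cell death, 2 were higher and 2 were lower. Bbc3 encodes Puma, a BH3-only protein that neutralizes the survival proteins of the Bcl2 family, and had 64.7 TPM in E14 (4029 reads) and 48.7 TPM in the mutant (2033 reads). The ratio for Bbc3 was -0.41 on the log2 scale (-0.49 to -0.33). Bax, the pore-forming effector of mitochondrial apoptosis, was close to level with 395 TPM (10816 reads) and 366 TPM (6704 reads), a log2 ratio of -0.11 (-0.16 to -0.07).

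Aen, a nuclease that takes part in apoptotic DNA fragmentation, had 135 TPM in E14 (10650 reads) and 144 TPM in the mutant (7621 reads), a log2 ratio of 0.10 (0.06 to 0.14). Trp53inp1, a stress protein of autophagy and cell death, had 154 TPM (26178 reads) and 163 TPM (18593 reads), a log2 ratio of 0.08 (0.06 to 0.11). Both ratios changed sign with the scaling, and they lay near the median of all genes, with 48.6% of genes above Aen.

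Zmat3 and Phlda3 lay at opposite ends of the targets. Zmat3, a zinc finger protein that binds RNA, had 51.5 TPM in E14 (12627 reads) and 73.5 TPM in the mutant (12067 reads), a log2 ratio of 0.51 (0.48 to 0.55). Its end overlaps the long noncoding RNA 4930429B21Rik, so reads there are uncertain. Phlda3, which blocks Akt at the membrane through its pleckstrin homology domain, had 89.4 TPM (4132 reads) and 57.3 TPM (1775 reads). Its log2 ratio was -0.64 (-0.72 to -0.56), with 9.13% of all genes lower.

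The 9 targets split into 4 higher and 5 lower (1 higher and 8 lower with library totals). Their median log2 ratio was -0.08, beside 0.08 for all genes. Of the targets, 5 lay within 0.2 of no difference, a share that was not counted for all genes. The summed level of the targets was 1467 TPM in E14 and 1390 TPM in the mutant. Because Trp53 had the highest ratio of the 10, every target was necessarily lower in the mutant when expressed per unit of Trp53. So were 91.9% of all 9094 genes, which had a lower ratio than Trp53. This measure does not depend on the scaling of the libraries. The log2 change in that quotient ran from -0.25 for Zmat3 (-0.30 to -0.21) to -1.41 for Phlda3 (-1.49 to -1.32), and it was -1.23 for Cdkn1a and -1.18 for Bbc3. Bax was the 1 target above Trp53 in E14, at 1.42 times its TPM, and stood at 0.77 times in the mutant.

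**Figure D2:**
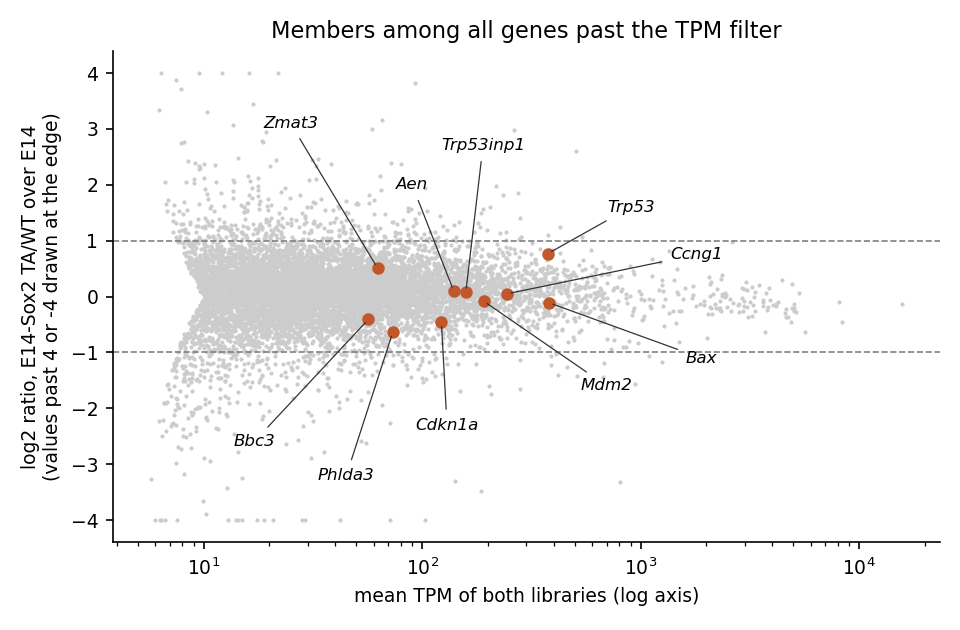
Mean TPM of both libraries (log axis) against the log2 ratio of TPM, mutant over E14, for the 9094 genes with at least 10 TPM in either library (grey) and the 10 members (labelled), with dashed lines at 2-fold. All 10 members lie between the dashed lines, with Trp53 highest at 0.77 and Phlda3 lowest at -0.64.

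Base composition and transcript length differed among the members. Trp53 (54.0% GC) and Cdkn1a (54.3%) were alike in GC content and had ratios of opposite sign. Trp53inp1 (38.8%) and Ccng1 (40.8%) had the lowest GC content of the list. The transcripts of Bbc3 (65.2% GC), Phlda3 (62.6%) and Bax (59.2%) were richer in GC than the median of 50.5% over all genes, whereas Zmat3 had 47.6% GC and the longest transcript of the list at 7797 bases. When the trend of the ratio on GC content and then on length over all genes was removed, Trp53 went to 0.88 and Mdm2 to -0.18, while Zmat3 went to 0.02. Cdkn1a, Bbc3 and Phlda3 came closer to no difference, at -0.20, -0.21 and -0.33. Bax turned to 0.30, Ccng1 to -0.22 and Trp53inp1 to -0.35, and Aen was 0.13. The part of GC content and length in these results was not tested. With the trend removed, Trp53 (0.88) still had the highest ratio of the members, ahead of Bax (0.30). All 9 targets were therefore again necessarily lower per unit of Trp53, from -0.59 for Bax to -1.23 for Trp53inp1. The share of all genes with a lower ratio than Trp53 was not counted in this setting.

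**Figure D3:**
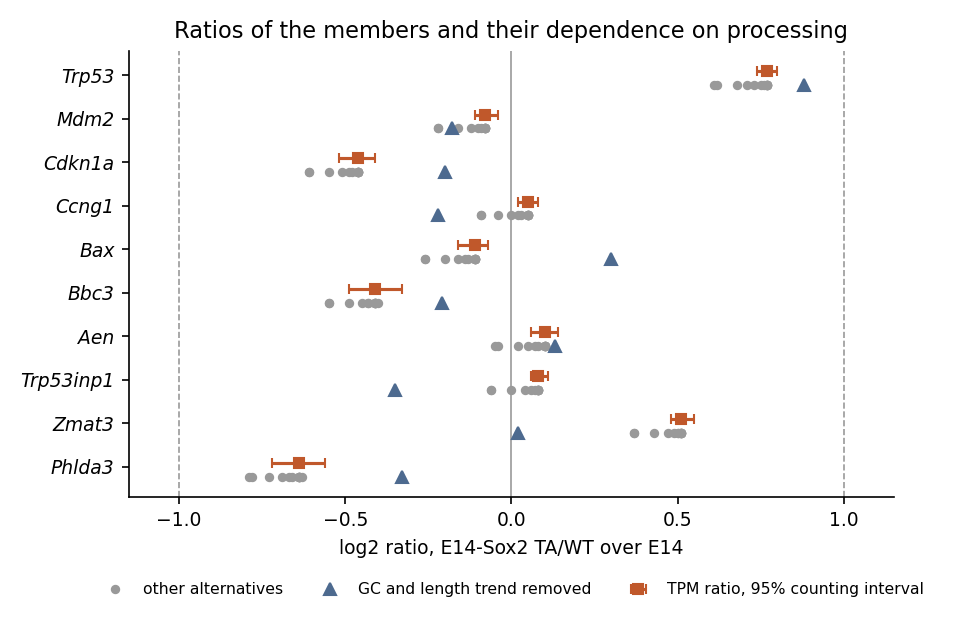
Log2 ratio of TPM, mutant over E14, for each member with its 95% counting interval (squares), the ratio with the GC and length trend removed (triangles) and the other alternatives (grey points), with dashed lines at 2-fold. Trp53 lies right of 0 throughout (0.61 to 0.88), Cdkn1a, Bbc3, Phlda3 and Mdm2 lie left of 0 throughout, and Ccng1, Bax, Aen and Trp53inp1 cross it.

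The genes around Trp53 on chromosome 11 did not share its ratio. Within 500 kb, 32 other genes passed 10 TPM, 18 of them higher and 14 lower in the mutant. Their median log2 ratio was 0.08, and 31 of them had a lower ratio than Trp53, as did 91.9% of all genes. The median of all 757 genes of chromosome 11 was 0.09. Wrap53, the nearest neighbour, had 28.9 and 30.6 TPM and a log2 ratio of 0.08 (-0.03 to 0.19). Its annotated gene ends just before that of Trp53 begins. Next by distance between leftmost bases came Atp1b2 (-1.20), Fxr2 (-0.52), Sox15 (-2.56), Mpdu1 (-0.19) and Cd68 (-2.22), all lower in the mutant. Zmat3 exceeded all 6 of its own neighbours, whose median was -0.02, and 82.3% of all genes had a lower ratio than Zmat3.

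**Figure D4:**
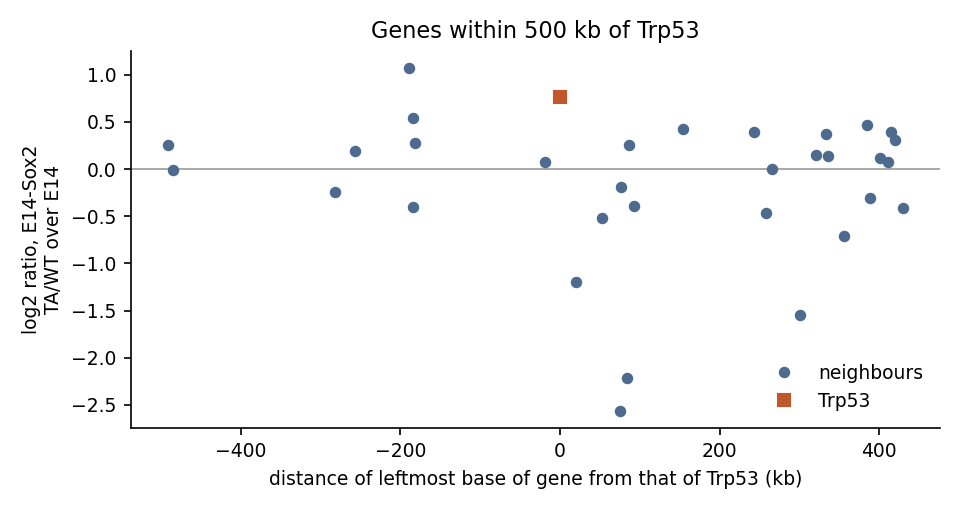
Distance of the leftmost base of a gene from that of Trp53 (kb) against the log2 ratio of TPM, mutant over E14, for the 32 genes past 10 TPM within 500 kb (circles) and Trp53 (square). The square at 0.77 lies above all but 1 of the circles, which have a median of 0.08 and reach down to -2.56 at Sox15.

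The regulators of p53 were listed next, 23 genes in all, of which 22 passed 10 TPM. In the mutant, 17 had a higher and 5 a lower TPM. Their median log2 ratio was 0.24 beside 0.08 for all genes, and 15 of the 22 lay above the latter. In each direction 1 regulator passed 2-fold, beside 4.17% of all genes higher and 4.07% lower. Sirt1, a deacetylase of p53, rose from 23.8 to 75.6 TPM (2928 and 6237 reads, log2 ratio 1.67). Rchy1, a ubiquitin ligase for p53 also called Pirh2, fell from 57.8 to 25.4 TPM (3694 and 1084 reads, log2 ratio -1.19, -1.29 to -1.09). Mdm4, the partner and relative of Mdm2, had 19.7 and 24.5 TPM, a log2 ratio of 0.31 that went to 0.03 with the GC and length trend removed. Usp7, a deubiquitinase of Mdm2 and p53 and the most highly expressed of the regulators, had 155 and 260 TPM (0.74, 0.72 to 0.77). The relatives of p53 were low, with 7.60 and 3.30 TPM for Trp73 (1140 and 333 reads) and 5 reads in E14 and 0 in the mutant for Trp63.

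A further 26 p53 targets were examined, of which 21 passed 10 TPM. Their median log2 ratio was -0.23 beside 0.08 for all genes, with 7 higher and 14 lower. Of the 21, 1 rose and 3 fell by more than 2-fold, beside 4.17% and 4.07% of all genes. Sfn, which encodes the 14-3-3 sigma protein of G2 arrest and is also an epithelial gene, rose from 25.8 to 134 TPM (1312 and 4559 reads, log2 ratio 2.37, 2.29 to 2.46). Gadd45a, a stress sensor that slows the cell cycle, fell from 149 to 51.9 TPM (5750 and 1340 reads, -1.52, -1.61 to -1.44). Steap3, a metalloreductase, fell from 26.5 to 9.59 TPM (-1.47), and Ephx1, a hydrolase of epoxides, fell from 50.5 to 19.6 TPM (-1.37). The most abundant of the list, Rps27l, had 903 and 834 TPM and a log2 ratio of -0.11. After removal of the trend on GC and length, the median of this list was -0.22 and that of the regulators 0.17.

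The apoptosis machinery and the cell-cycle genes repressed through p21 had list medians nearer to 0 than the regulators and the further targets. Of 18 apoptosis genes, 15 passed 10 TPM, with 7 higher, 8 lower and a median of -0.03. Of the 15, 1 was more than 2-fold higher and 0 more than 2-fold lower, beside 4.17% and 4.07% of all genes. Mcl1, a survival protein and the most abundant of the list, had 410 and 325 TPM (-0.34). All 16 cell-cycle genes that p53 represses through p21 passed 10 TPM, with 9 higher, 7 lower and a median of 0.10. None of the 16 passed 2-fold, beside 4.17% of all genes higher and 4.07% lower. The 16 ran from Cenpa, a centromeric histone (189 and 151 TPM, -0.32), to Mki67, a proliferation marker (53.5 and 103 TPM, 0.95). The value for Mki67 went to 0.49 with the GC and length trend removed.

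**Figure D5:**
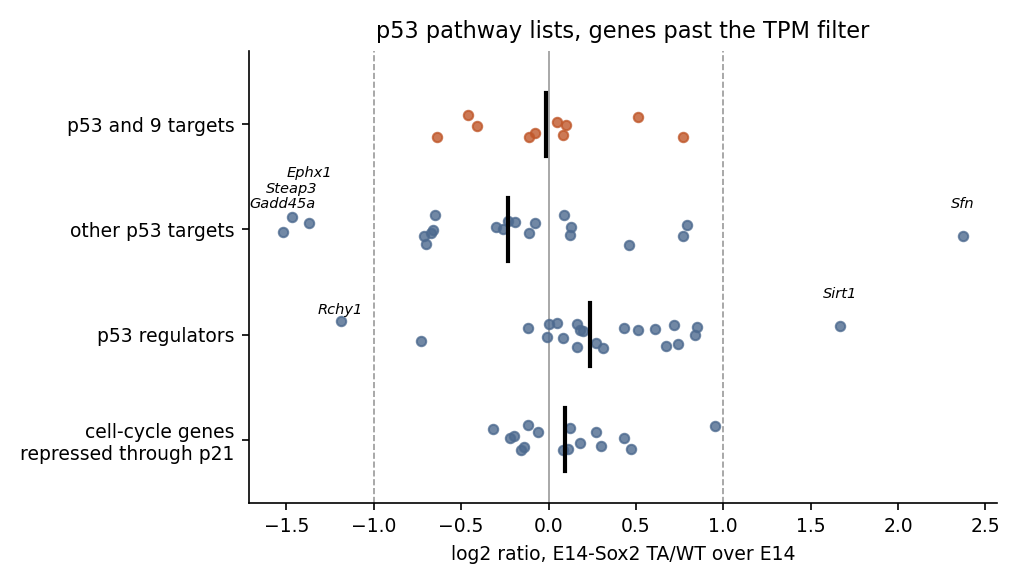
Log2 ratio of TPM, mutant over E14, for the genes past 10 TPM among the members and in 3 p53 pathway lists (points, spread vertically for legibility), with the list median as a black bar and dashed lines at 2-fold. Medians run from -0.23 for the other p53 targets to 0.24 for the p53 regulators, and the genes named lie past 2-fold.

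The paired p53 element also gave a set of genes chosen by sequence alone. Of the genes whose window held it, 12 were in the table and 6 passed 10 TPM, namely Ccng1, Cdkn1a, Gtse1, Mthfd1, Rps27l and Sptbn4. Of these 6, 3 were higher and 3 lower, and their median log2 ratio was -0.03. None of the 6 was past 2-fold, a small set beside 4.17% of all genes higher and 4.07% lower. Gtse1, a mitotic protein that restrains p53, had 316 and 349 TPM (0.14, 0.12 to 0.17), and Sptbn4, a spectrin, had 13.2 and 9.58 TPM (-0.47, -0.56 to -0.37). Genes with an exact half-site in their window had a median of 0.04 (583 genes), beside 0.08 for 6714 genes with a window and no half-site. Past 2-fold in either direction were 9.61% of the former and 7.75% of the latter.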

How the data were processed

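Polyadenylated RNA was sequenced on an Illumina instrument. The submitters' processing notes name Trimmomatic, HISAT2 2.1.0 and StringTie 2.1.3b. Per the file headers, the authors deposited whole read counts without normalization, FPKM values and TPM values per gene. Strand and the treatment of reads shared between genes are not given in the sources used here. All value columns were used.

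Ratios are TPM in E14-Sox2 TA/WT over E14 cells, without a pseudocount, for genes with at least 10 TPM in at least 1 library, and the threshold was 2-fold, after the study's methods. Intervals are exact Clopper-Pearson 95% intervals of the read counts on the TPM scale. Intervals of quotients to Trp53 use a normal approximation on log counts. Counts were scaled by TMM (edgeR 4.0.16) and size factors (DESeq2 1.42.0) as alternatives. Trends were removed as medians in 20 bins of GC content, then length, over GENCODE M21 transcripts that carry the RefSeq IDs (9033 of 9094 genes). Coordinates and promoter windows are from RefSeq GRCm38.p6. The code was checked on simulated data.

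Members and lists were chosen with earlier results of these data known. Every member was named. From other lists, the genes past 2-fold, or else the highest and lowest ratio, and the most abundant gene were named, with Mdm4, Wrap53, Trp63, Trp73 and Sox2. One gene that met this rule is not reported here. The fibroblast markers below 10 TPM and the genes with a paired element were named outside this rule, a choice made after the data were seen.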

Additional observations from a re-analysis of the deposited data

How the results depend on the processing

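The log2 ratio was recomputed under 14 alternatives. The TPM filters, the lack of a filter and the restriction to protein-coding genes leave a gene's own ratio unchanged. A pseudocount cannot turn its sign. Agreement in sign under these settings was therefore fixed in advance, and only the scalings, the centring and the trend removal could change it. Trp53, Mdm2, Cdkn1a, Bbc3, Zmat3 and Phlda3 kept their sign in all 14 (Trp53 0.61 to 0.88, Mdm2 -0.22 to -0.08, Cdkn1a -0.61 to -0.20, Bbc3 -0.55 to -0.21, Zmat3 0.02 to 0.51, Phlda3 -0.79 to -0.33). With counts scaled to the library total, Ccng1 turned to -0.09, Aen to -0.05 and Trp53inp1 to -0.06. The FPKM ratio gave -0.09, -0.04 and -0.06 for these genes. Both of these scalings put the median of all genes at -0.06, in place of 0.08. Centred on the median of all genes, Ccng1 was -0.04, and with the GC and length trend removed Ccng1 was -0.22, Bax 0.30 and Trp53inp1 -0.35. The median of the 10 members, -0.01, went to -0.16 with library totals and with FPKM, -0.06 with TMM, -0.10 when centred and -0.19 with the trend removed.

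No member was past 2-fold under any filter, pseudocount or scaling tried or at 3-fold, and 1 was past 1.5-fold in each direction. A filter of 1 TPM, which admits more genes, gave 5 other p53 targets and 1 p53 relative lower, 3 apoptosis genes higher and 1 lower, and 1 fibroblast marker higher and 2 lower by more than 2-fold. The shares of all genes rose at that filter too, to 6.45% higher and 9.95% lower among 13729 genes. The counts of the other lists stayed within 1.5 times of those reported, also with the trend removed, an alternative added for the lists after the data were seen. Depth did not limit the members, whose lowest count was 1775 reads, while 1 library per genotype did.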

Other observations

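The gene descriptions in the table name p53 for 12 further genes that are in no list above, a group chosen after the data were seen. Of these, 9 passed 10 TPM, with 8 lower and 1 higher in E14-Sox2 TA/WT cells. Their median log2 ratio was -0.19 beside 0.08 for all genes. None of the 9 was past 2-fold, beside 4.17% of all genes higher and 4.07% lower. Trp53inp2, a relative of Trp53inp1 that acts in autophagy, had 24.6 TPM in E14 (3049 reads) and 14.5 TPM in the mutant (1207 reads), a log2 ratio of -0.76 (-0.86 to -0.66). Trp53i11 was alike at 58.6 and 34.9 TPM (-0.75, -0.82 to -0.67). Mtbp, a binding partner of Mdm2, had 58.1 and 39.2 TPM (-0.57, -0.63 to -0.50). The 1 gene that was higher, Trp53rka, named as a regulating kinase of p53, had a log2 ratio of 0.19 (0.06 to 0.32). Triap1 and Cdip1 had intervals that held 0.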
